A study of Mus musculus with 10 samples.

Results

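Immediate early genes and heat shock genes, 2 groups of genes that respond to stress within a short time, were examined in mouse leukaemia cells as a measure of handling and stress. The members were named genes, 18 immediate early and 14 chaperone or heat shock genes, and the probe set with the highest mean log2 value over the 10 arrays stood for each gene. Of these 32 genes 30 were measured, among 18193 genes in all. The 18 immediate early genes were all measured, whereas 12 of the 14 chaperone genes were. Hsp90ab1, a constitutive cytosolic chaperone, and Hsf1, the main heat shock transcription factor, had no probe set named for them alone and were not analysed here.

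The cells were an acute lymphoblastic leukaemia called NSTY ALL, on the C57BL/6 background, with 1 Affymetrix array for each of 10 animals. All 10 samples shared human p210 bcr/abl, the loss of the Ink4a/Arf locus, and C57BL/6 recipients prepared by total body irradiation and 5-fluorouracil. Recipients were infused with the leukaemia together with marrow and spleen cells that were allogeneic (C3.SW, 5 animals) or syngeneic (C57BL/6, 5 animals). The leukaemia was passed on every 2 to 3 weeks over 3 serial transplants, sorted on green fluorescent protein from bone marrow and put straight into Trizol. The leukaemia is 1 named leukaemia, and the labels give no age for the animals. Each sample came from an animal of its own, and the labels do not say whether animals of a group shared leukaemia from an earlier recipient, so p-values measure only the spread between these animals.

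Immediate early genes are transcribed without new protein synthesis when kinases phosphorylate factors already bound at their promoters, chiefly serum response factor with its ternary complex partners and the cAMP response element binding protein. Their transcripts are short-lived, and many encode transcription factors or inhibitors of the same kinases. Heat shock genes are switched on by trimers of heat shock factor that bind inverted repeats of the unit GAA, and their products refold or hold damaged proteins. Both groups are known to respond when tissue is dissociated and cells are sorted, and both also respond to signals inside the animal.

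Promoters are shown because they hold the letters that these factors are known to bind. Of the 32 genes, 25 had an entry in the RefSeq promoter table (GRCm38.p6), 16 immediate early and 9 chaperone, and both strands of the 250 bases before each start were searched. A gene was counted where any of its listed promoters held the letters. The heat shock element of 2 units, GAANNTTC or TTCNNGAA, was present in 7 of 9 chaperone genes and in 2 of 16 immediate early genes (Jun and Egr2). It was present in 14.5% of all 27025 genes with a listed promoter. The heat shock element of 3 alternating units, separated by 2 free bases, contains the element of 2 units. It was present in Hspd1 and Hspe1 and in 0.514% of all genes. The core of the cAMP response element, TGACGT or ACGTCA, was present in 4 of 16 immediate early genes (Fos, Egr2, Dusp1 and Btg2). It was present in 0 of 9 chaperone genes and in 7.29% of all genes. The CArG box, which serum response factor binds, was found in Egr2 and Zfp36 (1.62% of all genes), and the AP-1 site TGANTCA in Bag3 alone (7.82%). Each match is a description of letters in this window and says nothing of binding in these cells.

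Windows that end at the base before the start site are given for Fos and Dusp1, both of them genes of wide spread between animals, with cAMP response element cores in capitals. They are followed by Hspa1b, Hspa1a and Hspe1, with heat shock elements in capitals. All are written 5′ to 3′ on the strand of the gene. They lie at chr12:85473740-85473889 (+) for Fos, chr17:26508473-26508672 (-) for Dusp1, chr17:34959239-34959388 (-) for Hspa1b, chr17:34972157-34972306 (-) for Hspa1a and chr1:55087998-55088147 (+) for Hspe1 in GRCm38.p6.
Fos: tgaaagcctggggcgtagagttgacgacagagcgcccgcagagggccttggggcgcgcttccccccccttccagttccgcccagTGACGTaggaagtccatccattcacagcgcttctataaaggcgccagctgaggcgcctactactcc
Dusp1: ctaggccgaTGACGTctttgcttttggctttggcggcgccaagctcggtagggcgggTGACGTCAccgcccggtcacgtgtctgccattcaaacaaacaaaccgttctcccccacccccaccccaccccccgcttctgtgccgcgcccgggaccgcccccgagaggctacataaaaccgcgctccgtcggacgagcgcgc
Hspa1b: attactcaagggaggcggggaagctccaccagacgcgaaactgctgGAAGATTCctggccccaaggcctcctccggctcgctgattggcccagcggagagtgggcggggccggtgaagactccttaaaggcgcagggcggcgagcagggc
Hspa1a: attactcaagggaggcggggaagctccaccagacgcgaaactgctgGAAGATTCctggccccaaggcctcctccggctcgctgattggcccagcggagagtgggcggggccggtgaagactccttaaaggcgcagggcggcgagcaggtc
Hspe1: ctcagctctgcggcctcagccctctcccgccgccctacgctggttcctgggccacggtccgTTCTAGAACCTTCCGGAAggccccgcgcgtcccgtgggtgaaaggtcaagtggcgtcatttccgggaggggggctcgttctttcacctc

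The Fos window held 1 core that began 66 bases before the start. The Dusp1 window held 3 matches to the core between 191 and 141 bases before the start, 2 of which overlap. Hspa1b and Hspa1a, neighbouring copies of the inducible Hsp70 gene, were identical at 149 of 150 positions (99.3%), and their single element began 104 bases before each start. In Hspe1, which encodes the mitochondrial co-chaperonin Hsp10, 2 overlapping elements of 3 units began 89 and 84 bases before the start. Hspd1, which encodes its partner Hsp60, lies on the opposite strand and has 2 listed starts. The one 216 bases from the Hspe1 start has this stretch before it, whereas the one 95 bases away lies beyond the Hspe1 start, so that the stretch then falls inside Hspd1.

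Values are log2 array values after quantile normalization. A probe set was called above background where it passed the 95th percentile of 27 control probe sets for bacterial transcripts, a limit of 4.50 to 5.32 by array. Between 11224 and 13094 genes passed it on each array. Of the 11 measured B-lymphoid progenitor markers, 10 were above background on every array, and Vpreb1, a surrogate light chain gene of B-cell precursors, averaged 13.68 in allogeneic and 13.64 in syngeneic leukaemia. Summed linear signals of 11 measured macrophage and monocyte markers ran from 12150 to 14140 on allogeneic arrays, against 8791 to 11200 on syngeneic arrays, without overlap. The median difference of these markers was -0.06, with 5 of 11 positive, Cd14 and Itgam were above background on no array, and the top marker was Fcgr3. Without Mpeg1, which encodes a pore-forming protein (12.63 in allogeneic and 11.95 in syngeneic leukaemia, adjusted p = 0.182 by limma), the sums overlapped, at 5133 to 7898 on allogeneic arrays against 4662 to 6211 on syngeneic arrays. Stroma and endothelium markers ran from 801.1 to 973.2 on allogeneic arrays, against 573.2 to 820.2 on syngeneic arrays. Granulocyte markers ran from 1289 (animal 1) to 7629 (animal 4) on allogeneic arrays, against 1907 to 4757 on syngeneic arrays. Ranges for T cell, NK cell, erythroid and plasma cell markers overlapped too, and 0 markers of any list were called by limma. The top NK cell marker was Gzma (9.92 in allogeneic and 8.86 in syngeneic leukaemia, difference 1.06, adjusted p = 0.0995 by limma). Of 7 measured NK cell markers 4 had a positive difference, and 3 were above background on no array. The T cell sum rested largely on Il7r (12.74 in allogeneic and 12.70 in syngeneic leukaemia). Of 8 measured T cell markers 2 were above background on all arrays, so this sum says little of T cells. The top plasma cell marker was Irf4 (12.96 in allogeneic and 13.12 in syngeneic leukaemia). Of 6 plasma cell markers 1 had a positive difference, and Jchain gave -0.83 (adjusted p = 0.167 by limma). Ratios of 3′ to 5′ Gapdh probe sets, a sign of RNA integrity, ran from 1.38 to 1.59 in allogeneic and from 1.46 to 1.56 in syngeneic samples. Allogeneic animals 1, 3 and 4 had deposited intensities with a raised lower quartile, 18.7 to 19.5, where the other 7 arrays had at most 14.4. The part of these differences in the results was not tested.

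No member passed the adjusted threshold between allogeneic and syngeneic leukaemia. By limma with Benjamini-Hochberg adjustment over all genes, 0 of 18 immediate early genes and 0 of 12 chaperone genes were called, where 0.583% of all genes were called, 92 higher and 14 lower in allogeneic leukaemia. At an unadjusted p under 0.05 there was 1 member, Klf4, of 30, where 16.9% of all genes passed. No member had groups that did not overlap, as 4.83% of all genes did. Median log2 differences, allogeneic minus syngeneic, were -0.10 over the immediate early genes, -0.12 over the 12 chaperone genes, 3 of them at or near background, and 0.01 over all genes. Differences were positive for 7 and negative for 11 immediate early genes. Of the 9 chaperone genes above background on all arrays, 2 were positive and 7 negative, with a median of -0.11. Over all genes 9319 were positive and 8872 negative, and over those above background on all arrays 5276 and 5179. The direction counts were not tested. In these bulk samples, fewer cells that express a gene and less RNA per cell cannot be told apart.

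**Figure D1:**
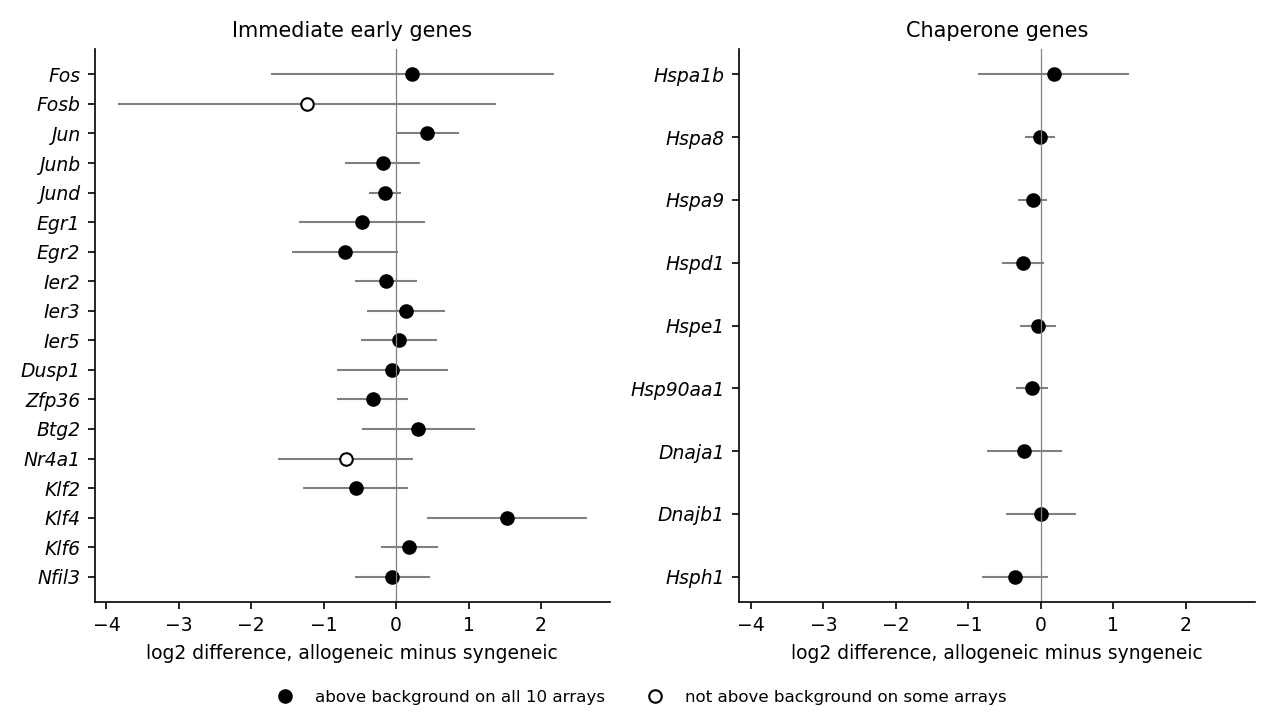
Log2 difference between allogeneic and syngeneic leukaemia (x axis) for the 18 immediate early genes (left) and 9 chaperone genes (right) above background on at least 1 array of each group, with its 95% interval from limma (5 animals per group). Filled points were above background on all 10 arrays, and every interval except that of Klf4 (0.43 to 2.63) includes 0.

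What set the immediate early genes apart from each other was the spread between animals. Fos, the partner of Jun in the AP-1 transcription factor (chromosome 12, 85473890 to 85477274), had values of 5.84, 5.89, 5.04, 10.06 and 8.23 in allogeneic animals 1 to 5, against 6.91, 7.16, 6.88, 7.31 and 5.69 in syngeneic animals 1 to 5. Allogeneic animals 4 and 5 were higher than every syngeneic animal, 1 allogeneic animal was below all of them, and the groups overlapped. The log2 difference was 0.22 (SE 0.88, 95% interval -1.73 to 2.18, adjusted p = 0.928 by limma). The pooled within-group SD of Fos was 1.54. Among 10455 genes above background on all 10 arrays, 1 had a larger one, the haemoglobin gene Hbb-b2 at 1.70.

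Fosb, a close relative of Fos, showed the same split in the allogeneic group. Its values were 3.61, 3.05, 3.70, 9.34 and 7.37 in allogeneic animals, against 7.81, 5.97, 5.98, 7.25 and 6.21 in syngeneic animals. It was above background in allogeneic animals 4 and 5 only of that group and in all 5 syngeneic animals. The difference, which includes the 3 values at background, was -1.23 (SE 1.17, 95% interval -3.84 to 1.37, adjusted p = 0.631 by limma).

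Jun, the partner of Fos in AP-1, varied less. It had values of 11.13, 11.12, 10.74, 11.78 and 11.39 in allogeneic animals, against 10.78, 10.51, 10.97, 11.06 and 10.69 in syngeneic animals. Of the allogeneic animals 4 lay above every syngeneic animal and 1 lay within their range. The difference was 0.43 (SE 0.20, adjusted p = 0.302 by limma), and a second Jun probe set gave 0.48. Its relatives Junb and Jund, which also form AP-1, gave differences of -0.18 (SE 0.23) and -0.16 (SE 0.10). Jund ranged only from 12.66 to 12.99 in allogeneic and from 12.91 to 13.02 in syngeneic animals. A second Jund probe set, of much lower signal, gave 0.35 (SE 0.23).

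Egr1 and Egr2, zinc finger factors of the early growth response family, had negative differences in every setting run, none of them called. Their relative Egr4 had a positive one, 0.24 (SE 0.12), and Egr3 was above background on 3 of 10 arrays. Egr1 had values of 9.81, 10.14, 11.15, 10.47 and 8.88 in allogeneic animals, against 10.88, 10.35, 11.09, 9.95 and 10.57 in syngeneic animals. Allogeneic animal 5, whose Fos was second highest, had the lowest Egr1 of the 10. The difference was -0.48 (SE 0.39, 95% interval -1.34 to 0.39, adjusted p = 0.569 by limma). Egr2 had values of 5.39, 5.94, 7.21, 5.88 and 6.46 in allogeneic animals, against 7.27, 6.37, 7.25, 6.75 and 6.77 in syngeneic animals. The difference was -0.70 (SE 0.33, adjusted p = 0.311 by limma), and a second Egr2 probe set gave -0.92 (SE 0.48).

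Klf4, a zinc finger factor that restrains proliferation in lymphocytes (chromosome 4, 55527137 to 55532475), had the largest positive difference of the members. Its values were 7.69, 5.74, 8.08, 8.56 and 6.57 in allogeneic animals, against 6.11, 5.91, 5.14, 6.02 and 5.80 in syngeneic animals. The 3 highest arrays were those of allogeneic animals 1, 3 and 4, the arrays with the raised lower quartile, and allogeneic animal 2 lay within the syngeneic range. The difference was 1.53 (SE 0.49, 95% interval 0.43 to 2.63, unadjusted p = 0.011, adjusted p = 0.175 by limma). Without those 3 arrays, which leaves allogeneic animals 2 and 5, the difference was 0.36 (adjusted p = 0.530 by limma). Leaving out the 3 highest values lowers the difference in any case, so this does not tell what the raised quartile contributed. Over all settings the difference lay between 0.36 and 1.93. A second Klf4 probe set gave 1.70 (adjusted p = 0.155 by limma). Its relatives Klf2, which maintains quiescence and migration of lymphocytes, and Klf6 gave -0.56 (SE 0.33) and 0.18 (SE 0.18).

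The feedback genes differed little in their means. Dusp1, a phosphatase that switches off mitogen-activated protein kinases, had values of 9.64, 9.89, 9.27, 10.66 and 11.03 in allogeneic animals, against 10.32, 9.90, 10.22, 10.66 and 9.66 in syngeneic animals. Its 2 highest allogeneic animals were again 4 and 5, and the difference was -0.05 (SE 0.34, 95% interval -0.81 to 0.71). Zfp36, which marks AU-rich messages for decay, gave -0.32 (SE 0.22). Btg2, an antiproliferative gene that p53 also activates, had values of 8.03, 9.81, 9.90, 9.86 and 9.15 in allogeneic animals, against 8.98, 9.24, 9.26, 8.60 and 9.13 in syngeneic animals. Allogeneic animal 1 was the lowest of the 10 and animals 2, 3 and 4 the highest, with a difference of 0.31 (SE 0.35). Ier2, Ier3 and Ier5, immediate early response genes, gave -0.14, 0.14 and 0.04. Nr4a1, an orphan nuclear receptor induced by antigen receptor signals, was above background on 8 of 10 arrays (3 allogeneic and 5 syngeneic) and gave -0.70 (SE 0.42). Nfil3, a basic leucine zipper factor, gave -0.05 (SE 0.23).

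**Figure D2:**
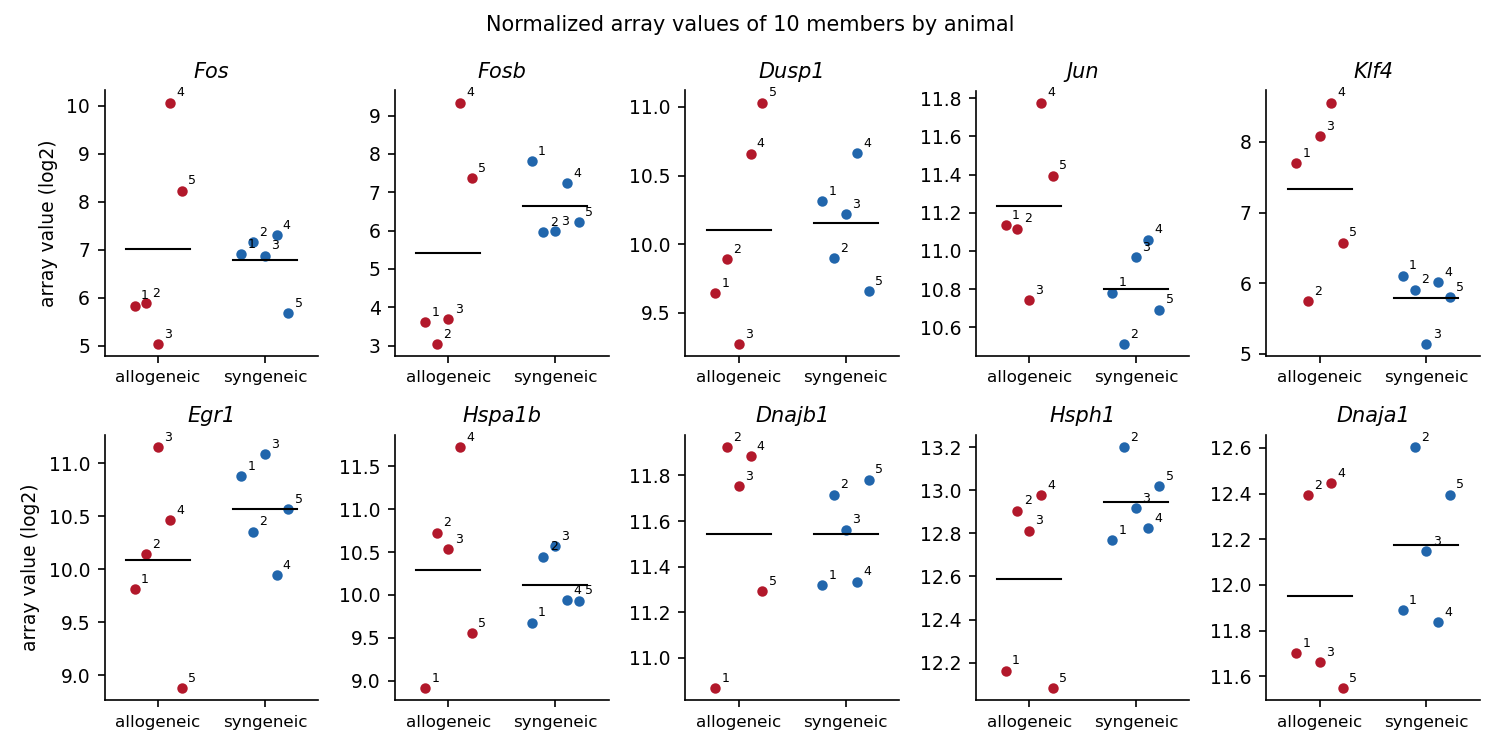
Quantile-normalized log2 array values (y axis, own scale in each panel) of 10 members in allogeneic (left) and syngeneic (right) animals, with the animal number beside each point and a line at the group mean. Within the allogeneic group, Fos, Fosb and Dusp1 are highest in animals 4 and 5, and Hsph1 is lowest in animals 1 and 5.

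Of the 9 chaperone genes above background on all arrays, Hspa1b had the largest pooled within-group SD (0.81) and Hspa9, Hspa8 and Hsp90aa1 the smallest (0.07, 0.07 and 0.10). Hspa1b, the inducible Hsp70, had values of 8.92, 10.73, 10.54, 11.73 and 9.56 in allogeneic animals, against 9.68, 10.45, 10.57, 9.94 and 9.93 in syngeneic animals. Allogeneic animal 4 was the highest and animal 1 the lowest of the 10. The difference was 0.18 (SE 0.47, 95% interval -0.87 to 1.22, adjusted p = 0.883 by limma). Hspa1a was above background on no array and is given no fold. As the 2 genes are near-identical copies, the probe sets named for one may also detect the other.

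Dnajb1, the Hsp40 co-chaperone that also works with Hsp70, had values of 10.87, 11.92, 11.75, 11.88 and 11.29 in allogeneic animals, against 11.32, 11.72, 11.56, 11.33 and 11.78 in syngeneic animals. The groups overlapped, and the difference was 0.00 (SE 0.22, 95% interval -0.48 to 0.49). A second Dnajb1 probe set, of lower signal, gave 0.61 (SE 0.21, adjusted p = 0.186 by limma), so the 2 probe sets of this gene disagreed. Dnaja1, another Hsp40, had values of 11.70, 12.39, 11.66, 12.45 and 11.55 in allogeneic animals, against 11.89, 12.60, 12.15, 11.84 and 12.40 in syngeneic animals. Its difference was -0.23 (SE 0.23), with allogeneic animals 1, 3 and 5 below every syngeneic animal. Further Dnaja1 probe sets above background on all arrays gave -0.04 (SE 0.20) and 0.02 (SE 0.20).

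Hsph1, the Hsp110 that exchanges nucleotide on Hsp70, had values of 12.16, 12.91, 12.81, 12.98 and 12.08 in allogeneic animals, against 12.77, 13.20, 12.92, 12.82 and 13.02 in syngeneic animals. Allogeneic animals 1 and 5 lay below the other 8. The difference was -0.36 (SE 0.20, 95% interval -0.81 to 0.10, adjusted p = 0.404 by limma). Hspd1, the mitochondrial chaperonin, ranged from 12.14 to 12.65 in allogeneic animals, against 12.33 to 12.73 in syngeneic animals, and gave -0.24 (SE 0.13, adjusted p = 0.377 by limma), the smallest p of the chaperone genes. Hspe1 ranged from 13.04 to 13.47 against 13.25 to 13.39 and gave -0.04 (SE 0.11).

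The constitutive Hspa8 (Hsc70) ranged from 13.72 to 13.90 in allogeneic animals, against 13.72 to 13.89 in syngeneic animals, with a difference of -0.01 (95% interval -0.22 to 0.19). Hspa9, the mitochondrial Hsp70, gave -0.11 (95% interval -0.31 to 0.09). Hsp90aa1, the inducible cytosolic Hsp90, gave -0.12 (95% interval -0.35 to 0.10), and another probe set of it gave -0.41 (SE 0.17, adjusted p = 0.269 by limma). For the probe sets that stood for them, the intervals of these 3 genes reached no further than -0.35 and 0.19. An Hspa8 probe set of lower signal gave -0.28 (SE 0.33). Of the 10455 genes above background on all arrays, 97.9% had a pooled within-group SD at least as large as that of Hspa8. Vpreb1, a marker of similarly high signal, had a smaller one (0.03), so the narrow range was not particular to Hspa8. Hspb1, the small heat shock protein Hsp27, was above background on 1 allogeneic array and on no syngeneic array, and Bag3, a co-chaperone of Hsp70 in selective autophagy, was above background on no array. No fold is given for either.

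Over all 60 probe sets of the 30 members, 16 of which had several, 0 were called in a limma fit over 45037 probe sets and 4 had an unadjusted p under 0.05, with a lowest adjusted p of 0.155.

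**Figure D3:**
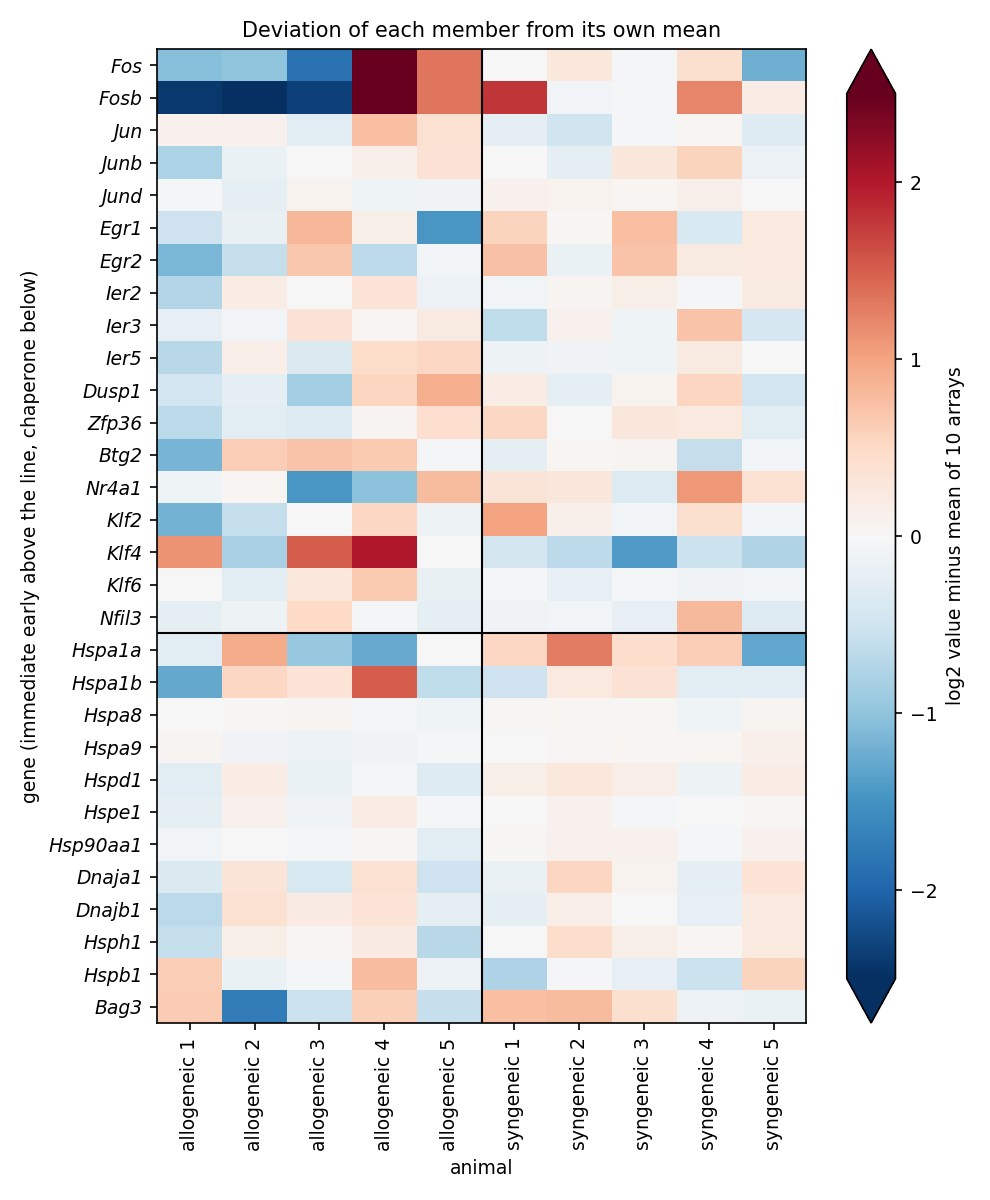
Deviation of each member's log2 value from its own mean over the 10 arrays (colour), with genes down the page and animals across, allogeneic left of the vertical line. Fos and Fosb hold the strongest colours, low in allogeneic animals 1 to 3 and high in animals 4 and 5, and the row of Hspa8 is nearly blank.

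A score for each animal, the mean deviation of the members from their own means over 10 arrays, was computed for each group of genes. The immediate early score was -0.57, -0.36, -0.14, 0.61 and 0.22 in allogeneic animals 1 to 5, against 0.19, -0.07, 0.0008, 0.28 and -0.16 in syngeneic animals 1 to 5. Group means were -0.05 ± 0.47 in allogeneic and 0.05 ± 0.18 in syngeneic animals (SD, n = 5 each), a difference of -0.10. The difference turned positive over the members above background on all arrays (0.01) and without allogeneic animal 1 (0.03). The lowest and highest scores of the 10 were both allogeneic. In allogeneic animal 4, 14 of 18 immediate early genes were above their own mean, and in allogeneic animal 1 only 2 were.

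The chaperone score was -0.21, 0.05, -0.14, 0.22 and -0.30 in allogeneic animals, against -0.02, 0.33, 0.13, -0.08 and 0.01 in syngeneic animals. Group means were -0.08 ± 0.21 in allogeneic and 0.08 ± 0.16 in syngeneic animals (SD, n = 5 each), a difference of -0.15. Over the 9 members above background on all arrays the difference was -0.10. Over these 9 members allogeneic animal 1 was the lowest of the 10 (-0.38) and allogeneic animal 4 the highest (0.28), as in the immediate early score. The summed granulocyte marker signal was also lowest in allogeneic animal 1 and highest in allogeneic animal 4. Its part in the scores was not tested. Over all 12 genes, 3 of them at or near background, allogeneic animal 5 was the lowest. Animal 5 was also low over the 9 members (-0.32) but had an immediate early score above its group mean. The 2 scores thus did not order all animals alike.

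**Figure D4:**
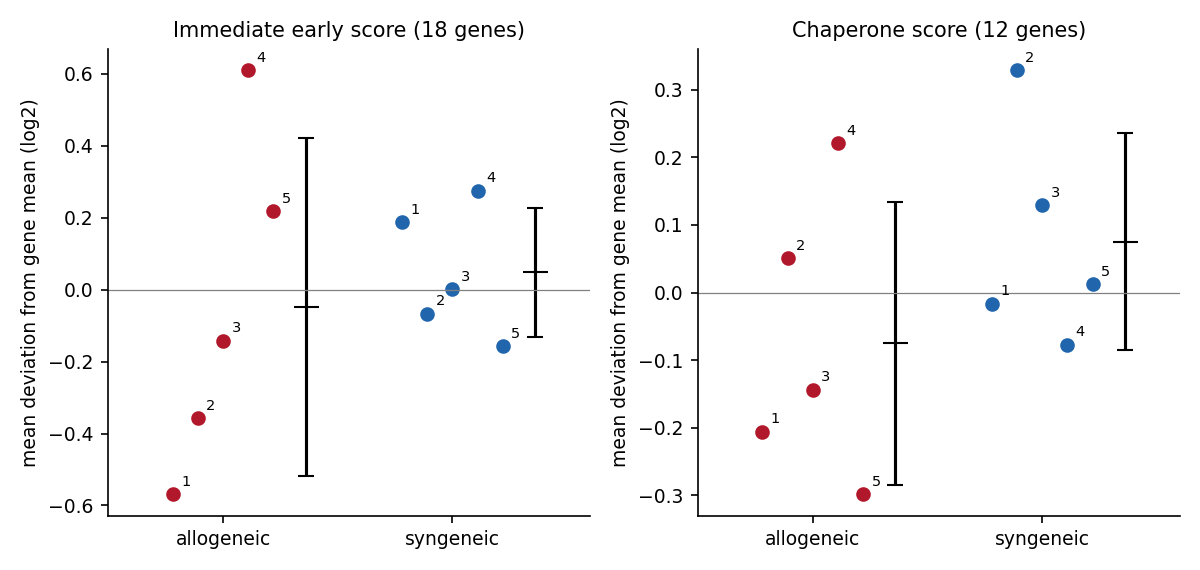
Immediate early score (left, 18 genes) and chaperone score (right, 12 genes) of each animal on the log2 scale, with the animal number beside each point. Bars give the group mean ± SD (n = 5 each), -0.05 ± 0.47 and 0.05 ± 0.18 for immediate early genes and -0.08 ± 0.21 and 0.08 ± 0.16 for chaperones, allogeneic left.

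The SD was larger in allogeneic than in syngeneic animals for 16 of 18 immediate early genes and for 9 of 12 chaperone genes. The same held for 77.4% of all genes and for 85.75% of those above background on all arrays. That is 83.3% of the 30 members, so the wider allogeneic spread was about as common among genes in general. Median SDs were 0.59 in allogeneic and 0.38 in syngeneic animals over the immediate early genes, 0.43 and 0.19 over the chaperone genes, and 0.43 and 0.26 over all genes.

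Which genes moved with Fos between animals was tested with the group held fixed, by a limma fit of every other gene on the Fos value. No gene was called (0% of 18192, lowest adjusted p = 0.500), and 5.47% had an unadjusted p under 0.05. Of 17 other immediate early genes 5 had an unadjusted p under 0.05, all with positive slopes, against 0 of 12 chaperone genes. The slopes, in log2 units per log2 unit of Fos, were 1.22 for Fosb (SE 0.19) and 0.32 for Dusp1 (SE 0.08). Those of Jun, Ier5 and Zfp36 were 0.17, 0.18 and 0.16. Fosb lay at background in allogeneic animals 1 to 3, and those values enter its slope. Slopes were positive for 13 of 17 immediate early genes, 7 of 12 chaperone genes and 51% of all genes. Egr1 (-0.13) and Egr2 (-0.08) were among the 4 immediate early genes with negative slopes. The chaperone count includes Hspa1a, Hspb1 and Bag3, which lay at or near background. The Fosb slope lay between 1.12 and 1.34 with each animal left out in turn, and that of Dusp1 between 0.27 and 0.53, the highest without allogeneic animal 4.

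The genes above background on all arrays with the smallest p on Fos were Rgs1, a brake on G protein signals of lymphocytes (slope 0.73), Dnase1 (0.37), the scaffold gene Dlg5 (0.21), Gm20300 (-0.30) and Ppp1r15a, a stress-induced regulator of translation (0.47). Rgs1 had values of 9.40, 8.96, 7.65, 12.02 and 10.30 in allogeneic animals, against 9.02, 8.58, 9.14, 10.02 and 8.64 in syngeneic animals. It was highest in allogeneic animal 4, as Fos was. Each of the 5 slopes kept its sign with each animal left out in turn. The genes were picked by p from these same arrays, so the kept sign says little. No gene was called, so these too are the first of a ranking.

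The same fit on Hsph1 called no gene (0% of 18192, lowest adjusted p = 0.0947), and 11.9% had an unadjusted p under 0.05. Of 11 other chaperone genes 3 had an unadjusted p under 0.05, Hspa1b (slope 2.17, SE 0.43), Dnajb1 (0.98, SE 0.21) and Dnaja1 (0.93, SE 0.28), and of 18 immediate early genes 2 did, Btg2 and Ier2. The constitutive Hspa8 (0.11, SE 0.15) and Hspa9 (-0.11, SE 0.15) did not. Slopes were positive for 8 of 11 chaperone genes, 12 of 18 immediate early genes and 52% of all genes. The chaperone count includes Hspa1a (-0.28), Bag3 (-0.43) and Hspb1 (0.33), which lay at or near background. With each animal left out in turn the Hspa1b slope ran from 1.75 to 2.60, that of Dnajb1 from 0.76 to 1.27 and that of Btg2 from 0.86 (without allogeneic animal 1) to 2.08 (without allogeneic animal 5).

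The genes with the smallest p on Hsph1 among those above background on all arrays were the orphan nuclear receptor gene Nr4a2 (slope 1.94, SE 0.20), Gm1976 (-2.59), the histone methyltransferase gene Suv39h2 (1.79), 8430426J06Rik (1.74) and Spice1, a gene of the mitotic spindle (1.80). Nr4a2 had values of 7.12, 8.24, 8.19, 8.48 and 6.48 in allogeneic animals, against 7.80, 8.65, 8.07, 7.90 and 8.10 in syngeneic animals. It was lowest in allogeneic animals 1 and 5, as Hsph1 was. No gene was called, so these are the first of a ranking.

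**Figure D5:**
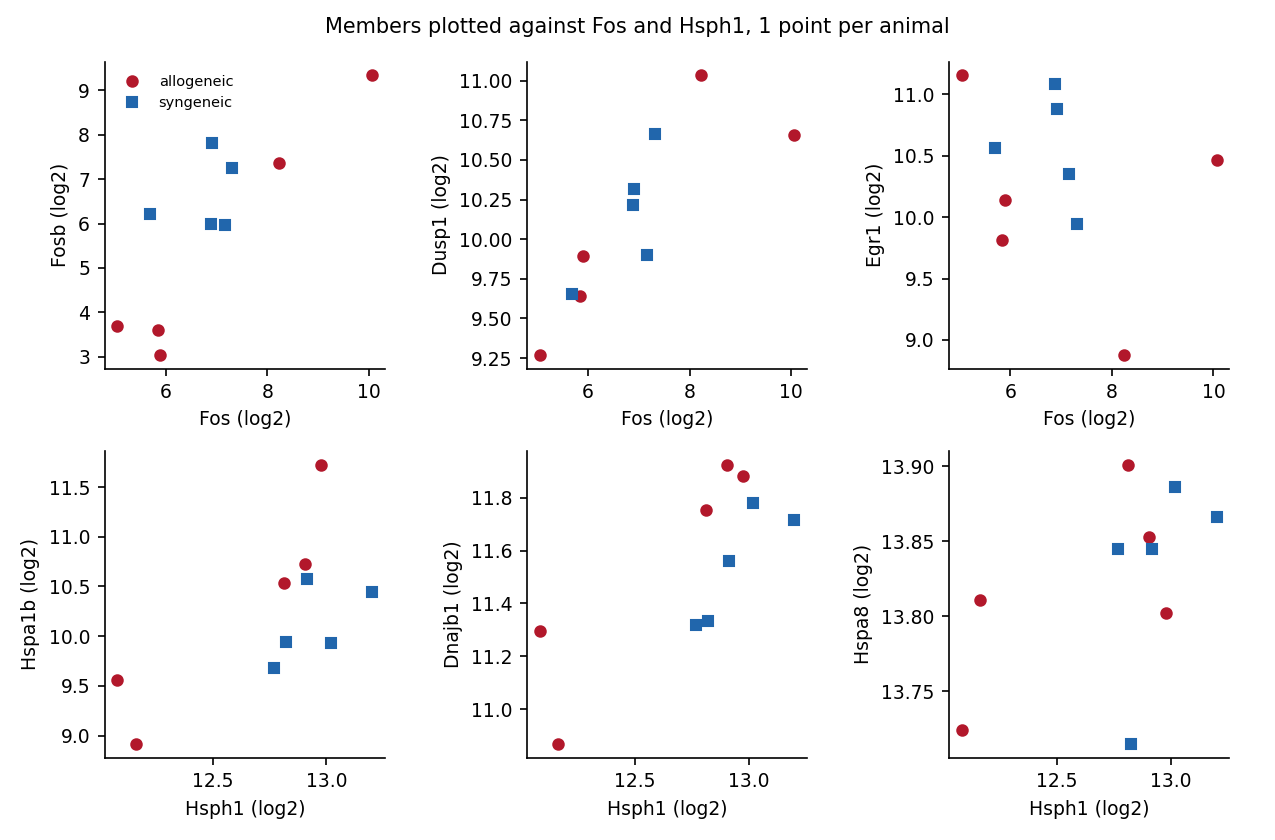
Values of 3 immediate early genes against Fos (top) and of 3 chaperone genes against Hsph1 (bottom), both axes in log2 array values, 1 point per animal (circles allogeneic, squares syngeneic). Fosb and Dusp1 have positive slopes on Fos (1.22 and 0.32) and Egr1 does not (-0.13). Fosb lay at background in allogeneic animals 1 to 3. Hspa1b and Dnajb1 have positive slopes on Hsph1 (2.17 and 0.98) and Hspa8 a slope of 0.11 over a narrow range.

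Further genes of the same pathways were read from lists of other immediate early genes, upstream regulators and other chaperones. Over all genes, 0.583% were called, 16.9% had an unadjusted p under 0.05 by limma and 4.83% had groups that did not overlap. Of 44 other immediate early genes, all measured, 0 were called, and at an unadjusted p under 0.05 there were 4 higher and 4 lower, with a median difference of -0.14. Atf3, a stress-induced transcription factor, had values of 7.81, 7.84, 7.07, 8.05 and 7.77 in allogeneic animals, against 4.62, 5.66, 5.84, 7.15 and 6.23 in syngeneic animals. It was above background on 9 of 10 arrays, all but that of syngeneic animal 1. The groups overlapped by 1 animal on each side, and the difference was 1.80 (SE 0.41, 95% interval 0.90 to 2.71, adjusted p = 0.0854 by limma).

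Socs3, which inhibits cytokine receptors that signal through STAT3, had values of 10.02, 10.04, 10.33, 9.08 and 9.55 in allogeneic animals, against 11.05, 10.63, 11.36, 11.75 and 10.59 in syngeneic animals. It was the 1 gene of this list whose groups did not overlap, where 4.83% of all genes had such groups. The difference was -1.27 (SE 0.29, 95% interval -1.92 to -0.62, adjusted p = 0.0893 by limma). Neither gene passed the adjusted threshold.

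Of 19 upstream regulators 15 were measured and 0 were called. At an unadjusted p under 0.05, 0 were higher and 1 lower, where 16.9% of all genes passed. Their median difference was -0.09. The smallest p-values belonged to Rps6ka3, a kinase that phosphorylates cAMP response element binding protein (-0.41, SE 0.16, adjusted p = 0.240 by limma), and to Mapk9, a Jun kinase (0.35, SE 0.16, adjusted p = 0.298 by limma). Of 48 other chaperone genes 45 were measured and 0 were called. At an unadjusted p under 0.05, 1 was higher and 3 were lower, against the same 16.9%. Their median difference was -0.05. The smallest p-values were those of Trap1, the mitochondrial Hsp90 (-0.40, SE 0.13, adjusted p = 0.168 by limma), and of Dnajc7, a co-chaperone of Hsp70 and Hsp90 (0.34, SE 0.11, adjusted p = 0.191 by limma). Dnajc7 was the 1 gene of that list whose groups did not overlap, where 4.83% of all genes had such groups. Its values ran from 12.13 to 12.44 in allogeneic animals against 11.74 to 12.13 in syngeneic animals, ranges whose edges nearly met.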

How the data were processed

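Expression was measured in sorted leukaemia of 5 allogeneic and 5 syngeneic animals, grouped from the labels. The authors deposited linear intensity values of 45101 probe sets for each array, from 0.74 to 22385. How they summarised, scaled or filtered the scans was not given in the sources used here. From these deposited intensity values, log2 values were taken and quantile normalized between arrays, with no filter. Symbols came from the platform annotation, updated to GRCm38.p6 for 34741 probe sets: 34945 probe sets had 1 symbol, 932 several, 9160 none, and 64 were controls. The probe set of highest mean stood for each of 18193 genes. Groups were compared with limma 3.58.1 (lmFit and eBayes, R 4.3.3) and Benjamini-Hochberg adjustment over all genes, called at 0.05, and 2 further fits took Fos or Hsph1 as a covariate beside the group. The fits were tested on simulated data. The scores have no test.

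The members and lists were chosen with earlier results of these data known. All members could be named, from each further list called genes or else the 2 with the smallest p, from each covariate fit the 5 with the smallest p among genes above background on all arrays, and from each marker list the gene of highest signal. Chosen for naming once their values were known were Hbb-b2, Foxc2, Kit, Cd14, Itgam, Mpeg1, Jchain, Egr3, Egr4 and the 8 genes given as values in the closing section. The background limit was also set with the data in view. No scan dates were used. The number of arrays limits the precision. Replicate numbers did not pair the samples, and the alternatives tried are given at the end.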

Additional observations from a re-analysis of the deposited data

Results flagged for a closer look

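In 64 groups of 5 values (30 members and 2 scores, each in 2 groups), 3 held an animal far from the other 4, its gap to the nearest being over 0.71 of the whole range. Chance sets apart about 1 in 20 groups. Fos was 5.69 in syngeneic animal 5, against 6.88 to 7.31 in the other 4 syngeneic animals. Nfil3 was 9.05 in syngeneic animal 4, against 7.92 to 8.17 in the others. Hspa8 was 13.72 in the same animal, against 13.84 to 13.89 in the others, a small gap in a gene of very narrow range. The wide allogeneic values of Fos and Fosb, which came as 2 high and 3 low animals, did not meet this criterion.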

How the results depend on the processing

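In 20 other settings 0 members were called, among 588 member values. The difference changed sign in 36 of these values, in 15 of 30 members, none of them called. It kept its sign in every setting that held the gene for Fosb, Jun, Egr1, Egr2, Zfp36, Btg2, Klf2, Klf4, Hspa9, Hspd1, Hsp90aa1, Dnaja1 and Hsph1, and also for Hspb1 and Bag3, whose values lay at or near background and show no stability by this. The number of all genes called, 106, moved more. It was 237 without the lower 25% of genes and 269 without the lower 50%, 252 with a pseudocount of 16, 307 with a trended and robust eBayes, 720 with array weights and 658 without allogeneic animals 1, 3 and 4. With each animal left out in turn it ran from 55 (without syngeneic animal 2) to 636 (without allogeneic animal 1), and was 69 without allogeneic animal 4, 57 without syngeneic animal 1 and 56 without syngeneic animal 5. The cause was not tested. A replicate block gave 14 called genes and 0 members. Same-numbered samples correlated between -0.21 and 0.35 in their deviations, over 0.1 in 2 of 5 pairs, and 2 of 5 samples correlated best with their own number, so the numbers were not taken to pair samples. The immediate early score difference ran from -0.26 (without allogeneic animal 4) to 0.03 (without allogeneic animal 1) with each animal left out in turn. It was 0.01 over members above background on all arrays. In alternatives chosen after seeing the data it was -0.19 without Klf4 and -0.04 without Fos and Fosb. The chaperone score difference ran from -0.22 (without allogeneic animal 4) to -0.09 (without syngeneic animal 2), and was -0.51 SD units when each member was divided by its SD, a change of scale. Called slopes on Fos and on Hsph1 numbered 0 to 1 with each animal left out. These were Foxc2 on Fos without allogeneic animal 2 (0.66, adjusted p = 0.0364 by limma) and Kit on Hsph1 without syngeneic animal 2 (2.38, adjusted p = 0.0338 by limma). Hspa1a and Bag3 lay below background on every array, and their values carry no order.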

Other observations

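Other immediate early genes with an unadjusted p under 0.05, of which none passed adjustment by limma, were the following. Fosl2, a further AP-1 partner, averaged 8.16 ± 0.39 in allogeneic and 8.77 ± 0.16 in syngeneic animals. Klf10, a zinc finger factor induced by transforming growth factor beta, averaged 11.00 ± 0.26 in allogeneic and 11.38 ± 0.15 in syngeneic animals. Zfp36l1, a relative of Zfp36, averaged 12.38 ± 0.16 in allogeneic and 12.64 ± 0.12 in syngeneic animals. Tnfaip3, an inhibitor of NF-kB, averaged 8.03 ± 0.22 in allogeneic and 7.59 ± 0.22 in syngeneic animals. Id1, an inhibitor of basic helix-loop-helix factors, averaged 6.96 ± 0.32 in allogeneic and 6.48 ± 0.19 in syngeneic animals, and the kinase gene Plk3 averaged 7.19 ± 0.50 in allogeneic and 6.64 ± 0.28 in syngeneic animals (SD, n = 5 each). Among the other chaperones, Hspa4 averaged 12.51 ± 0.15 in allogeneic and 12.80 ± 0.08 in syngeneic animals, and Dnajc2, a ribosome-bound Hsp40, averaged 12.22 ± 0.14 in allogeneic and 12.54 ± 0.10 in syngeneic animals. The adjusted p-values of these 8 genes lay between 0.165 and 0.293.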
